A study of Homo sapiens with 6 samples.

Results

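The genes described here are 9 markers used to define or enrich stem-like cells in pancreatic cancer: CD44, CD24, EPCAM, PROM1, MET, LGR5, DCLK1, NES and BMI1. They were chosen by symbol, with earlier results of these data known, and each of the 9 has 1 row among the 19077 genes of the table. The RNA came from SW1990, an established cell line of human pancreatic cancer, and was sequenced in 6 libraries. The parental group is 1 library of the line in ordinary medium with serum, and the resistant group is 1 library of a gemcitabine-resistant derivative grown with 100 nM of the drug. Gemcitabine is a nucleoside analogue used to treat this cancer, and because it was in the medium, resistance and drug exposure cannot be told apart. The other 4 libraries are flow-sorted fractions of the parental line, 2 TRA-1-81 positive and 2 TRA-1-81 negative. TRA-1-81 antibodies recognise a sugar structure that podocalyxin carries on pluripotent stem cells. Each fraction has a library titled 0603 and one titled 0610. The labels do not say what those numbers mark, whether the libraries came from separate cultures or whether the derivative is a clone, so the p-values reflect the spread among these libraries alone, which may be technical.

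Stem-like cells of pancreatic cancer were first enriched with antibodies to surface glycoproteins. CD44 is the main receptor for the matrix polymer hyaluronan, CD24 is a small lipid-anchored mucin-like protein, and EPCAM is an epithelial adhesion molecule; cells carrying all of them together, or carrying PROM1 (CD133, a protein of membrane protrusions), are the classical sorted populations. MET is the receptor for hepatocyte growth factor, and LGR5 is a receptor for R-spondins that marks stem cells of the intestinal crypt. The remaining members are not all surface proteins. DCLK1 is a microtubule-binding kinase of tuft cells, NES (nestin) is an intermediate filament of neural progenitors, and BMI1 is a chromatin protein of Polycomb repressive complex 1.

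Levels are the authors' FPKM, a fragment number divided by transcript length and by the size of the library, so levels of different genes can be set side by side. In each library 11164 to 11729 genes reached an FPKM of 1. Judged from the lowest values of short olfactory receptor genes, 3 fragments on a 1 kb transcript correspond to an FPKM of roughly 0.0949 to 0.169, depending on the library. The ductal markers of the labelled cell type were present except CFTR, a chloride channel, which was under 1 in all 6 libraries. KRT19 lay at 981 to 1299 and CDH1 (E-cadherin) at 50.2 to 72.8. Between parental and resistant cells, 2 of 6 such markers were higher by 2-fold or more in the latter, where 13.5% of all genes were. They were KRT7 (1285 against 607) and MUC1 (210.2 against 66.7). Another 2 were lower, where 6.90% of all genes were: KRT8 (844 against 2303) and KRT18 (645 against 1585). MUC1 was 278 to 367 in the sorted libraries, above the resistant value, so its direction depended on the reference. KRT7, KRT8 and KRT18 kept their direction against the sorted mean. Several markers of other cell types were under 1 in every library. Among them were PTPRC (leukocytes), PECAM1 and VWF (endothelium), DCN and COL1A2 (fibroblasts), CPA1 (acinar cells) and INS (endocrine cells). The summed level of 5 fibroblast markers was 14.2 in the resistant library and 2.13 to 3.52 in the others, nearly all of it COL1A1, and that of 5 leukocyte markers was 52.2 against 16.4 to 25.9, nearly all of it CD68. The summed level of 5 acinar markers was 5.54 in the parental library, with PRSS1 at 5.35, and 0.567 to 1.65 in the others. That of 4 endothelial markers was 1.05 to 4.79, with CDH5 at 0.678 to 4.01, and that of 4 endocrine markers at most 0.0861. The part of these in the results below was not tested.

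The CD24 row needs its sequence shown first, because it bears on what the value can mean. The table, built on hg19, lists CD24 on chromosome Y, from 21152526 to 21154705. In GRCh38 the gene lies on chromosome 6 and the Y copy is an intronless processed pseudogene, CD24P4. The coding sequence of the gene and the same stretch of the Y copy, both from GENCODE 29, are shown with the differing bases in capitals.
CD24 coding sequence, chromosome 6: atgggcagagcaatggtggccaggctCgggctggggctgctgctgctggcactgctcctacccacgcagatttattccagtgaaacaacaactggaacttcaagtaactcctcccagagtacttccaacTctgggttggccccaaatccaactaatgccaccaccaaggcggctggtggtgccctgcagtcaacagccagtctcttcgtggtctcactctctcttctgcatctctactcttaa
CD24P4, chromosome Y: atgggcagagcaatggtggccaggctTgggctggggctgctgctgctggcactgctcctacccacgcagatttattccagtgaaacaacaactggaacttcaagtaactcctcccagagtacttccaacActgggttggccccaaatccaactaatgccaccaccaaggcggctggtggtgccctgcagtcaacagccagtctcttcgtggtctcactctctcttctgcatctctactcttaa
They differ at 2 of 243 bases, C27T and T130A, with positions counted from the A of the start codon and the gene's base first. Over this stretch, fragments of the gene and of the copy differ at those bases alone. The row spans 2180 bases, and the rest of it was not compared with the gene. The row is read here as CD24 with that uncertainty. How fragments were divided among CD24 and its other pseudogenes was not stated in the labels.

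The 9 genes covered a wide range of levels. EPCAM, CD44 and MET were high in every library, between percentiles 90.5 and 98.7 of all genes. CD24 and DCLK1 spanned much of the range, CD24 from percentile 49.1 in the parental to 98.1 in the resistant library and DCLK1 from 49.0 in the resistant to 88.2 in the parental one. NES and BMI1 were of middling level, and LGR5 and PROM1 were under an FPKM of 1 in all 6 libraries. Because these are bulk samples, fewer cells carrying a marker and less of its RNA per cell cannot be told apart.

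**Figure D1:**
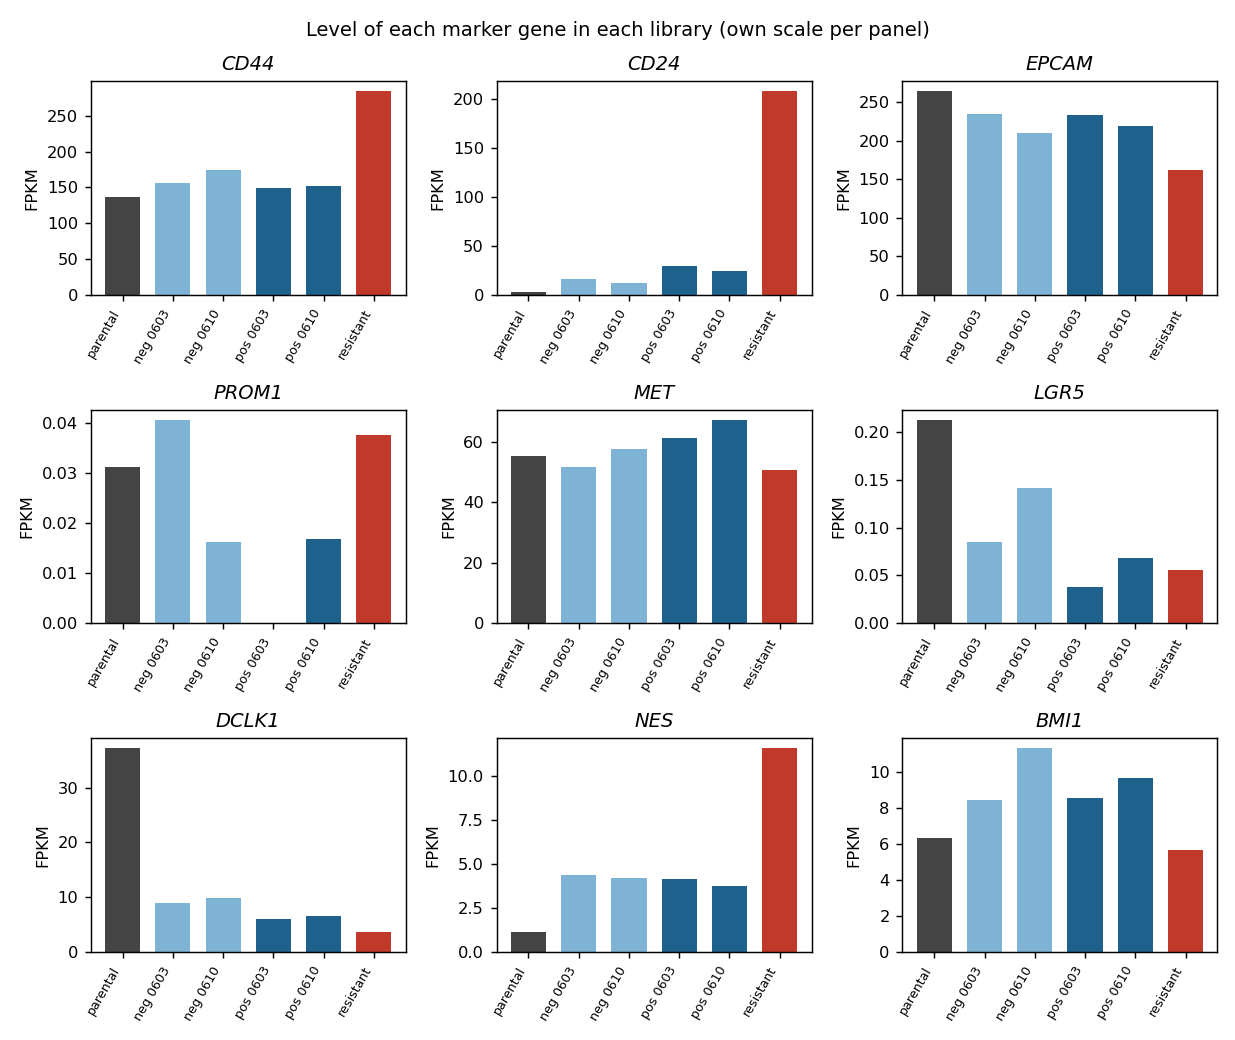
Each panel shows 1 marker gene, with its FPKM on a linear axis from 0 and 1 bar per library; neg and pos are the TRA-1-81 negative and positive fractions of the parental line. CD24, CD44 and NES were highest in the resistant library, DCLK1 was highest in the unsorted parental library at 37.2, and PROM1 never passed 0.0407.

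The first question was how the markers differ between gemcitabine-resistant and parental cells. Of the 7 members that reached an FPKM of 1 in one library or the other, 3 were at least 2-fold higher in the resistant library (CD24, NES and CD44), where 13.5% of 12066 genes were. DCLK1 was the 1 member at least 2-fold lower, where 6.90% of genes were. Both libraries are single, so these ratios have no replicate check. Over all genes the median log2 difference was 0.09, and -0.07 once the libraries were quantile normalized.

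CD24, which on tumour cells binds the inhibitory receptor SIGLEC10 of macrophages, had 2.82 FPKM in parental cells and 208 in resistant cells. It was 15.5 and 11.5 in the negative fractions 0603 and 0610 and 29.8 and 24.4 in the positive ones. The resistant level was 74.0 times the parental one and above all 5 libraries of the parental line (log2 difference on the FPKM + 1 scale 5.78, and 3.39 against the mean of the 4 sorted libraries). SIGLEC10 itself was under 1 in all 6 libraries.

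CD44 had 137 FPKM in parental cells and 285 in resistant cells, against 149.5 and 152 in the positive fractions and 156 and 174 in the negative ones. The resistant library was again above all 5 others, at 2.08 times the parental level. Its log2 difference was 1.05 against the parental library, 0.91 after quantile normalization and 0.85 against the sorted mean, so whether it reached 2-fold depended on scaling and reference. The CD44 row covers 8 RefSeq transcripts, and the table gives no level for single isoforms. In hg19, the build of the table, it runs over chr11:35160417-35253949.

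EPCAM (chr2:47596287-47614167), unlike CD24 and CD44, was lowest in resistant cells. Its FPKM was 265 in parental cells and 162 in resistant cells, 233 and 219.7 in the positive fractions and 235 and 210.1 in the negative ones. The resistant value lay below all 5 parental-line libraries, with a log2 difference of -0.70 to the parental library that did not reach 2-fold. The resistant library thus held the highest CD24 and CD44 and the lowest EPCAM of the 6.

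NES (chr1:156638556-156647189) had 1.10 FPKM in parental cells and 11.6 in resistant cells, with 4.15 and 3.73 in the positive fractions and 4.36 and 4.18 in the negative ones. The resistant level was 10.6 times the parental one, a log2 difference of 2.58, and 1.30 against the sorted mean. All 5 parental-line libraries lay below it.

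DCLK1 (chr13:36342789-36705514) showed the reverse order. Its FPKM was 37.2 in the unsorted parental library, 8.80 and 9.77 in the negative fractions, 5.99 and 6.45 in the positive ones and 3.49 in resistant cells. The parental level was 10.7 times the resistant one (log2 difference -3.09), but against the sorted mean the difference was -0.94, short of 2-fold. Most of the distance therefore lay between the unsorted parental library and the fractions sorted from the same line.

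MET (chr7:116312459-116438440) and BMI1 (chr10:22610139-22620414) differed little in this comparison. MET had 55.4 FPKM in parental cells and 50.6 in resistant cells, with 61.1 and 67.4 in the positive fractions and 51.8 and 57.8 in the negative ones. BMI1 had 6.29 and 5.63, with 8.52 and 9.64 in the positive fractions and 8.43 and 11.3 in the negative ones. Log2 differences to the parental library were -0.13 and -0.14, and both resistant values lay just below the lowest of the 5 parental-line values.

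Over the 7 measured members, the resistant library was the highest of the 6 for 3 and the lowest for the other 4. Among the 12251 genes that reached an FPKM of 1 in any library, 38.5% were above and 30.1% below all 5 parental-line libraries, so a place at an end of the 6 was common. Against the mean of the sorted libraries, 2 members (CD24 and NES) were at least 2-fold higher, where 8.12% of genes were, and 0 were at least 2-fold lower, where 4.86% were.

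**Figure D2:**
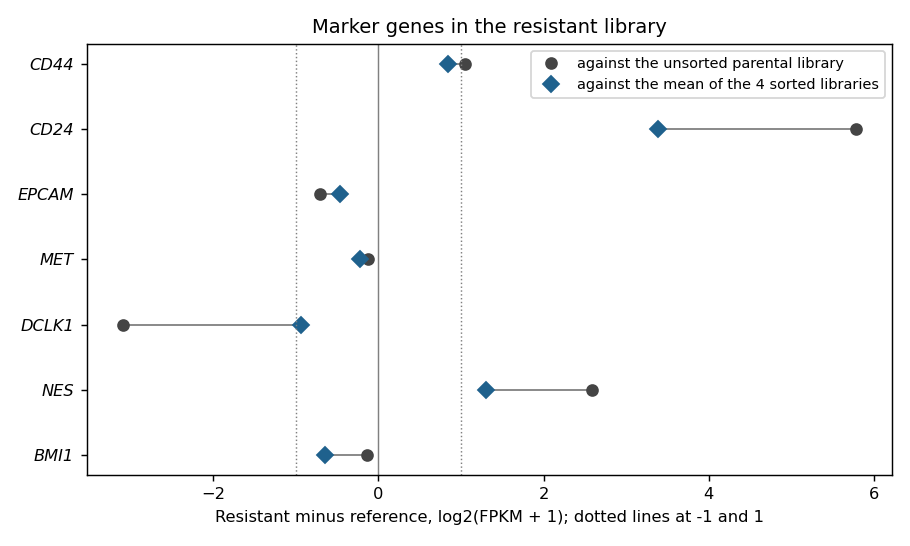
Log2(FPKM + 1) of the resistant library minus that of a reference, for the 7 markers with an FPKM of at least 1; circles use the unsorted parental library, diamonds the mean of the 4 sorted libraries, and dotted lines mark a 2-fold difference. CD24 and NES lay beyond 1 with both references, while DCLK1 moved from -3.09 to -0.94.

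LGR5 (chr12:71833813-71978621) and PROM1 (chr4:15969849-16085623) stayed near the limit of detection. LGR5 had 0.213 FPKM in parental cells and 0.0553 in resistant cells, 0.0377 and 0.0679 in the positive fractions and 0.0852 and 0.141 in the negative ones. Taking its longest coding transcript of 4611 bases, these values correspond to roughly 5.26 to 18.8 fragments per library. PROM1 was listed at 0 in the positive library 0603 and at 0.0162 to 0.0407 in the other 5, at most about 5.10 fragments. Differences in PROM1 were not detectable at this depth, and a listed 0 can be a failed estimate in this table.

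The unsorted parental library itself stood apart from the fractions sorted from the same line. All 4 sorted libraries were at least 2-fold above it for CD24 and NES (2 of 7 members, against 3.67% of genes) and at least 2-fold below it for DCLK1 (1 of 7, against 1.09%). The mean log2 difference of the sorted libraries to the parental one was 2.39 for CD24, 1.28 for NES and -2.15 for DCLK1, and 0.51 for BMI1. Sorting, culture and library preparation cannot be told apart here, and they bear on every ratio to the single parental library.

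The second question was how the markers differ with TRA-1-81 status. CD24 was higher and DCLK1 lower in positive cells within both numbers. In the fit over both numbers, MET was higher by 0.23 on the log2 scale, and CD44, EPCAM, NES and BMI1 differed by 0.13 or less. Single numbers differed more for some: CD44 was at -0.06 within 0603 and -0.19 within 0610, and BMI1 at 0.01 and -0.21. Of the 7 members tested, 0 had a limma adjusted p under 0.05 among 11533 genes, where 1 gene did (0.00867%). By unadjusted limma p under 0.05, 2 of the 7 passed (CD24 and DCLK1), where 4.90% of genes did.

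In positive cells CD24 averaged an FPKM of 27.1 ± 3.78, and in negative cells 13.5 ± 2.85 (SD, n = 2 each), with a log2 difference of 0.96 ± 0.17 (SE; limma adjusted p = 0.536). The difference was 0.90 within 0603 and 1.02 within 0610, and both positive libraries lay above both negative ones. By p it ranked 69 of 11533 genes.

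DCLK1 averaged 6.22 ± 0.320 and 9.29 ± 0.683 FPKM (SD, n = 2 each), a log2 difference of -0.51 ± 0.09 (SE; limma adjusted p = 0.491). The difference was -0.49 within 0603 and -0.53 within 0610, and its rank by p was 56. The differences of these 2 members had opposite signs between the fractions, and also between resistant and parental cells.

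MET averaged 64.2 ± 4.41 FPKM in positive cells, against 54.8 ± 4.23 (SD, n = 2 each). Its log2 difference was 0.23 ± 0.09 (SE; limma adjusted p = 0.9999), at 0.24 within 0603 and 0.22 within 0610. CD44 averaged 150.9 ± 1.95 and 165 ± 12.7 (SD, n = 2 each), a difference of -0.13 ± 0.08 (SE). For NES the difference was -0.10 ± 0.08, for EPCAM 0.03 ± 0.08 and for BMI1 -0.10 ± 0.15 (SE), each with a limma adjusted p of 0.9999. EPCAM and BMI1 had opposite signs in the 2 numbers.

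In total, both positive libraries were above both negative ones for 2 of 7 members (CD24 and MET), where 18.6% of genes were. They were below them for 3 of 7 (CD44, DCLK1 and NES), where 12.0% were. With 2 libraries a fraction, such an order is common among all genes.

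The libraries titled 0603 and 0610 also differed for some members. In both fractions BMI1 was higher in 0610, by 0.16 on the log2 scale in positive and 0.38 in negative cells, and it was the 1 member of 7 with both 0610 libraries above both 0603 ones, where 32.1% of genes were. EPCAM was the 1 member with both below, where 28.3% of genes were. For CD24 the 0610 minus 0603 difference was -0.28 in positive and -0.40 in negative cells, and for MET 0.14 and 0.15, with overlap between the numbers.

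**Figure D3:**
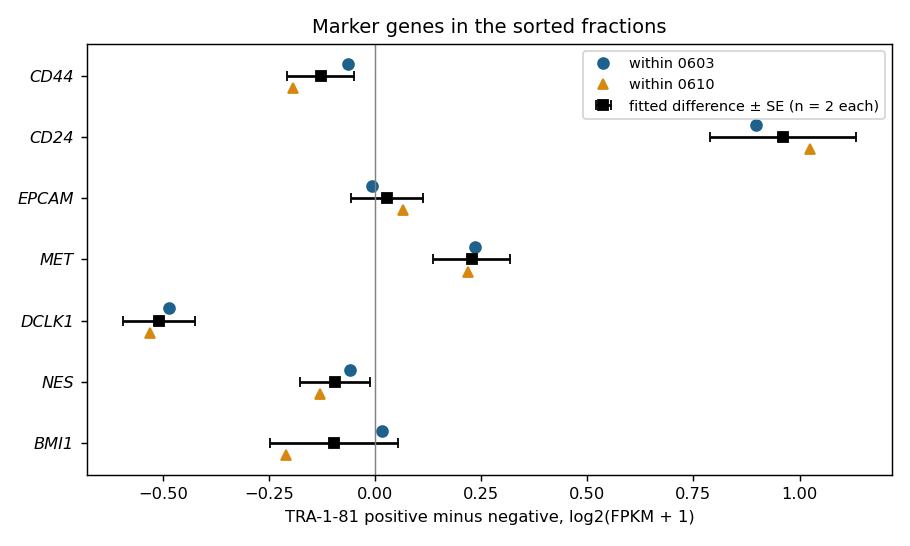
Positive minus negative difference in log2(FPKM + 1) for the 7 tested markers; squares with bars are the fitted difference ± SE over 2 libraries per fraction, circles and triangles the difference within 0603 and within 0610. CD24 at 0.96 and DCLK1 at -0.51 lay farthest from 0, with both numbers close to the fitted value.

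Put together over the 6 libraries, CD24 was higher at each step in the order parental, negative, positive, resistant, with no overlap between steps, and DCLK1 was lower at each step. Among all measured genes 6.87% were higher and 2.51% lower at every step of that order. The genes of nearest profile to CD24 were ECM1 (a secreted matrix glycoprotein), KRT5 (a basal keratin) and TCN1 (a vitamin B12-binding protein), at Euclidean distances of 0.209, 0.552 and 0.717 between log2 profiles centred on their means over the 6 libraries. ECM1 had an FPKM of 0.720 in parental, 5.69 to 14.9 in sorted and 101 in resistant cells, and KRT5 had 24.1, 105.5 to 263 and 1201. Nearest to DCLK1 were FAM167A (0.286), FUK, which encodes fucokinase (0.525), and GAL3ST1, a glycolipid sulfotransferase (0.554). FAM167A had 27.9 in parental, 4.40 to 7.08 in sorted and 2.72 in resistant cells. Nearest to NES were PLEKHO1 (0.156), GFPT2 (0.175), an enzyme of the hexosamine pathway, and PODXL2, a relative of podocalyxin (0.202). Nearest to CD44 were KLHDC8B (0.0446), CCDC69 and TMEM150A, all of narrow range.

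**Figure D4:**
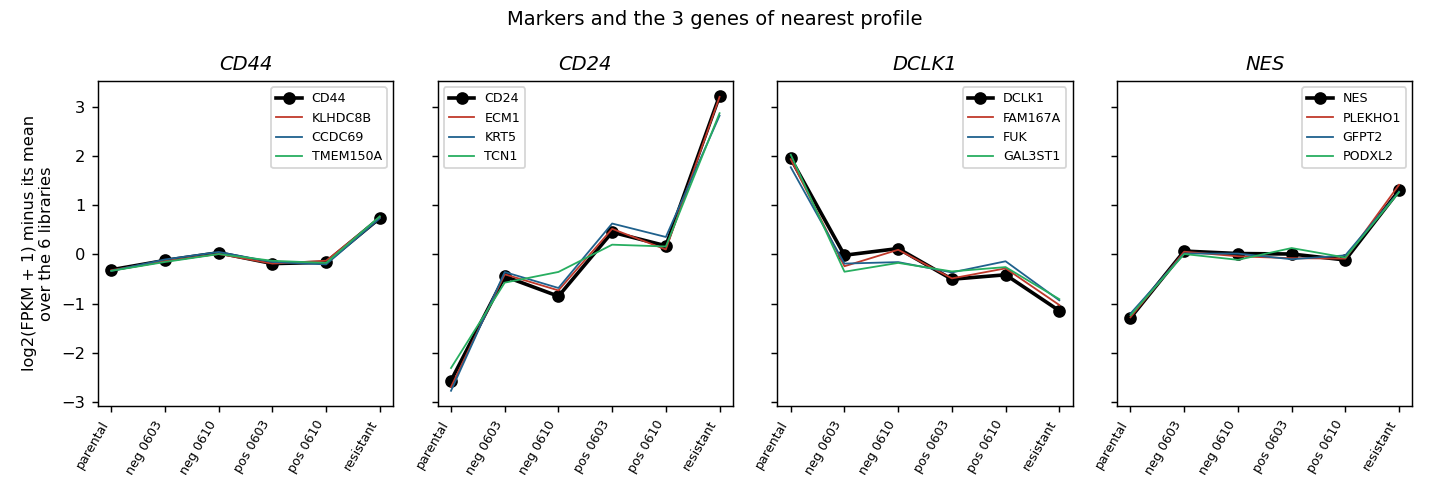
Log2(FPKM + 1) minus its mean over the 6 libraries for the 4 markers that ranged by at least 1 (black) and the 3 genes of nearest profile to each (coloured); lines only join the libraries to guide the eye. CD24, ECM1 and KRT5 stepped up from parental to resistant, while DCLK1 and FAM167A stepped down.

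The promoters of the 4 members that differed at least 2-fold between resistant and parental cells are shown. The windows run from 250 bases before to 50 after a RefSeq start (GRCh38.p14), which is listed for 7 of the 9 members in 15 windows; CD24 and DCLK1 have 3 starts each, and for every gene the most upstream one is shown. Capitals mark, on either strand, the letters of a TATA element (TATAAA), of the binding box CCAAT, of the GC box (GGGCGG), of the AP-1 site (TGANTCA) or of the E-box (CAGGTG); no matches of different motifs overlapped in these windows.
CD44, chr11:35138921-35139220, plus strand: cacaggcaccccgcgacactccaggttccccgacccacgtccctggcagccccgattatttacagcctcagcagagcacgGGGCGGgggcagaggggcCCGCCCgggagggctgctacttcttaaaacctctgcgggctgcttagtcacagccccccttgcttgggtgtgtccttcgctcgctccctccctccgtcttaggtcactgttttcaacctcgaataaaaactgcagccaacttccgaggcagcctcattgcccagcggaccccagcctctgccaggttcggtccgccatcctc
CD24, chr6:106975578-106975877, minus strand: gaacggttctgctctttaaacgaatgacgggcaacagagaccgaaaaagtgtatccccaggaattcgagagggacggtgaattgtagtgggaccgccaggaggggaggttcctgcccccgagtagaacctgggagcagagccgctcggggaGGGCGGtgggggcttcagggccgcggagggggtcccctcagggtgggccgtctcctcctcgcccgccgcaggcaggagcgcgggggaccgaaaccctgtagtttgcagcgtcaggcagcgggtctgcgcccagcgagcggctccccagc
NES, chr1:156677358-156677657, minus strand: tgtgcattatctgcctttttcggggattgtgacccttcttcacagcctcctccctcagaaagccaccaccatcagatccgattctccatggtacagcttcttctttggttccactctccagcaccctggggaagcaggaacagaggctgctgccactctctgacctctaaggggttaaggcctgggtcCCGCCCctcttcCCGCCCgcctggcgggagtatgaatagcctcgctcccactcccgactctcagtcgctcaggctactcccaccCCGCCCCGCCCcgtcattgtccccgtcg
DCLK1, chr13:36131890-36132189, minus strand: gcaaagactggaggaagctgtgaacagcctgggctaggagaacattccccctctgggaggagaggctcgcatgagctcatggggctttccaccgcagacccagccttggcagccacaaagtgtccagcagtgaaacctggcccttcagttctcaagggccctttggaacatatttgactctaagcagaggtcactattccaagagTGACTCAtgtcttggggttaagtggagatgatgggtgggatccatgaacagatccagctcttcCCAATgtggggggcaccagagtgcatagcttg
The GC box matched 4 times in the NES window, 2 times in that of CD44 and 1 time in that of CD24, and it matched in 45.0% of 35116 windows of all genes. The DCLK1 window held 1 AP-1 match, which 7.71% of windows had, and 1 CCAAT match, which 34.6% had. TATAAA (11.5% of windows) and CAGGTG (20.6%) matched in none of the 4 shown. Matches differed between the starts of a gene. Of the DCLK1 windows not shown, one held 2 GC boxes and the other 2 AP-1 matches. Of those of CD24, one held 0 matches and the other 1 CCAAT, 1 GC box and 1 E-box match. These matches describe letters only. The DCLK1 row covers 4 RefSeq transcripts and gives no level for a single start. Row and windows are placed in different builds, and whether the row reaches the start shown was not tested.

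The partners of each marker were then followed in the same libraries. Of 14 measured genes of the CD44 and hyaluronan list, 6 were at least 2-fold higher and 0 lower than in parental cells, where 13.5% and 6.90% of all genes were, with a median log2 difference of 0.76 against 0.09 over all genes, and the same 6 were at least 2-fold above the sorted mean, where 8.12% of genes were. The synthase HAS3 had an FPKM of 1.92 in parental, 3.07 to 5.13 in sorted and 32.5 in resistant cells, and HAS2 had 0.0292, 0.158 to 0.282 and 8.27. The other 4 genes, picked out after their values were seen, were the hyaluronidases HYAL1 (8.21 in parental and 44.8 in resistant cells) and HYAL3 (3.67 and 23.6), the hyaluronan-binding KIAA1199 (0.430 and 6.47) and MSN (moesin, which links CD44 to actin; 21.0 and 136). ESRP1, an epithelial splicing factor that acts on CD44 transcripts, had 88.9 in parental, 59.2 to 75.8 in sorted and 50.6 in resistant cells. SPP1 (osteopontin, another CD44 ligand) had 8.55 and 5.29. The hyaluronidase HYAL2 was level, at 23.7 and 23.3, and the synthase HAS1 was under 1 in all 6 libraries. Both belong to the list, and they were picked out for mention here after their values were seen.

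Around MET, 0 of 8 measured genes of the list were at least 2-fold higher or lower in resistant cells (median log2 difference 0.08). Over all genes 13.5% were higher and 6.90% lower, so with 8 genes a count of 0 says little. The ligand gene HGF was listed at 0 in 5 libraries and at 0.0281 in the resistant one, and HGFAC and MST1 were under 1 in all 6. The matriptase gene ST14, whose product activates the ligand, had 45.9 FPKM in parental, 79.7 to 91.4 in sorted and 58.5 in resistant cells. Its direction therefore depended on the reference. SPINT2, an inhibitor of such proteases, had 474, 332 to 344 and 293.

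Among EPCAM partners, 2 of 8 were at least 2-fold higher and 1 lower in resistant cells, where 13.5% and 6.90% of all genes were (median log2 difference 0.11). TSPAN8, a tetraspanin, had an FPKM of 4.16 in parental, 5.20 to 6.82 in sorted and 14.8 in resistant cells, and FHL2, a partner of the cleaved EPCAM tail, had 29.9, 30.8 to 32.8 and 64.9. ADAM17, a sheddase that cuts EPCAM, had 19.9, 17.6 to 24.6 and 9.34.

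PROM2, the relative of PROM1, was well expressed where PROM1 was not. It had an FPKM of 7.47 in parental, 16.1 and 13.8 in the negative, 22.7 and 20.9 in the positive and 72.4 in resistant cells, the same library order as CD24. Its log2 difference was 3.12 between resistant and parental cells and 0.52 between positive and negative cells (limma adjusted p = 0.557).

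LGR4 had an FPKM of 12.8 in parental, 21.7 to 24.1 in sorted and 28.9 in resistant cells, while LGR6 had 9.85, 6.97 to 10.1 and 2.54. Of 4 measured genes of the list 1 was at least 2-fold higher and 2 lower, where 13.5% and 6.90% of all genes were. The other lower one was SMOC2, a secreted crypt-base protein, at 2.78 and 0.271. The ligand genes RSPO1, RSPO2, RSPO3 and RSPO4 were under 1 in all 6 libraries, as were RNF43, AXIN2, ASCL2 and OLFM4.

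BMI1 acts within a complex with other subunits. Of 17 measured genes of the Polycomb list 1 was at least 2-fold higher in resistant cells (CBX6) and 3 lower, where 13.5% and 6.90% of all genes were, with a median log2 difference of -0.13. PHC2 had an FPKM of 73.8 in parental, 30.7 to 38.3 in sorted and 23.6 in resistant cells, and PHC1 had 11.2, 10.6 to 11.8 and 4.16. CBX6 had 4.09, 15.4 to 17.7 and 12.0, so its direction depended on the reference. CDKN2A and CDKN2B, cell cycle inhibitor genes that BMI1 can repress, were listed at 0 in all 6 libraries. The cause of these 0 values was not tested, and RNA levels alone do not show repression.

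Tuft cell genes other than DCLK1 were measured at very different levels. ALOX5, a lipoxygenase, had an FPKM of 17.2 in parental, 14.3 to 19.6 in sorted and 24.5 in resistant cells, above DCLK1 in all libraries but the parental one. TRPM5, CHAT, HPGDS, GFI1B, AVIL and IL25 were under 1 in every library, as were its relatives DCX, DCLK2 and DCLK3. POU2F3, the tuft cell transcription factor, had 1.28 FPKM in parental cells and 2.54 in resistant cells, higher where DCLK1 was lower. PTGS1 (cyclooxygenase 1) had 0.172 in parental, 1.45 and 1.21 in the negative, 2.74 and 2.55 in the positive and 3.72 in resistant cells. Its positive minus negative log2 difference was 0.65 (limma adjusted p = 0.487).

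Nestin needs partner filaments to assemble, and 2 of 3 measured partners were at least 2-fold higher in resistant cells, where 13.5% of all genes were. SYNM (synemin) had an FPKM of 1.08 in parental, 2.70 to 3.56 in sorted and 6.33 in resistant cells. DES (desmin) had 0.148, 0.329 to 0.480 and 1.95. VIM (vimentin) was abundant throughout, at 214 in parental, 285 to 425 in sorted and 380 in resistant cells.

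**Figure D5:**
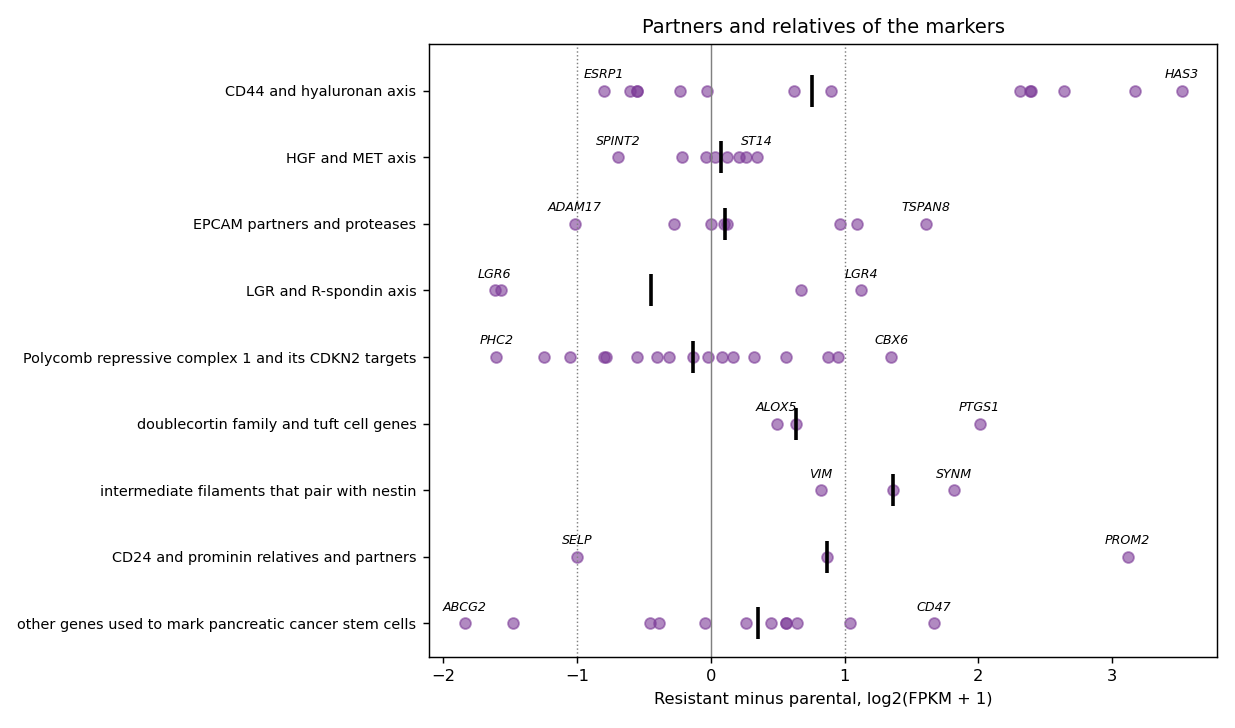
Resistant minus parental difference in log2(FPKM + 1) for each gene of 9 partner or relative lists that reached an FPKM of 1 in one of the libraries (circles), with the list's median as a black bar, the outermost genes named and dotted lines at -1 and 1. HAS3 at 3.52, HAS2 at 3.17 and PROM2 at 3.12 lay farthest to the right, and the HGF and MET list stayed between the dotted lines.

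Of 12 measured other genes used to mark pancreatic cancer stem cells, 2 were at least 2-fold higher in resistant cells and 2 lower, where 13.5% and 6.90% of all genes were (median log2 difference 0.35). CD47, a signal against phagocytosis, had an FPKM of 9.40 in parental, 16.5 to 21.3 in sorted and 32.0 in resistant cells, and ITGA6 (integrin alpha 6) had 119, 161 to 222 and 245. ABCG2, the transporter behind the dye-excluding side population, had 11.4, 11.2 to 13.0 and 2.48, and the tetraspanin CD9 had 435, 293 to 302 and 155. ALDH1A1, ABCB1, SOX2, NANOG, KIT and MSI1 were under 1 in all 6 libraries. In the sorted comparison 0 of the 68 tested genes over these 9 lists had a limma adjusted p under 0.05, where 0.00867% of genes did, and 9 of the 68 had an unadjusted limma p under 0.05, where 4.90% of genes did.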

How the data were processed

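RNA sequencing values of 6 libraries were used as deposited: FPKM per gene, which the authors made with CASAVA 1.8.2, TopHat2 2.0.11, Cufflinks 2.1.1 and hg19, per the submitters' processing notes. FPKM keeps no read counts, so depth is only approximate and a count test was not used. Of 19312 rows, 235 were left out because 191 symbols were repeated, keeping the row of highest mean; no member was repeated. Values were taken as log2(FPKM + 1), which understates the change of low genes. TRA-1-81 positive and negative libraries were compared with limma 3.58.1 (trend, R 4.3.3) over genes whose FPKM reached 1 in 2 or more sorted libraries, with Benjamini-Hochberg adjustment over all of them, after the code was tested on simulated data. Resistant and parental cells have 1 library each and were compared by a 2-fold rule without p-values. The members and gene lists were chosen with earlier results of these data known. Named partners were the 2 highest and 2 lowest ratios of each list, the highest and lowest sorted difference, and ligands or receptors under 1 throughout; other named genes were chosen after their values were seen. A gene that this rule names is not reported here. Pseudocount, filter, scaling, reference, repeated rows, replicate block and left-out libraries were varied.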

Additional observations from a re-analysis of the deposited data

How the results depend on the processing

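Between TRA-1-81 positive and negative cells, limma called 1 gene as reported, 0 with no filter on low values, 0 with a filter on an FPKM of at least 5, 0 after quantile normalization and 1 to 3 when each library was left out in turn; it was 3 without the positive 0603 library and 3 without the negative 0610 library. With the number 0603 or 0610 as a replicate block, 1484 of 11533 genes passed. Of the 7 members, CD24 (limma adjusted p = 1.43e-06), DCLK1 (0.000136), MET (0.00172) and CD44 (0.0478) passed. EPCAM (limma adjusted p = 0.644), NES (0.337) and BMI1 (0.320) did not. That fit leaves little spread of its own to measure for each gene, so its p-values rest largely on the spread shared over all genes. Leaving out 1 library changed the sign of small differences between the fractions: EPCAM was -0.0155 without the positive 0603 and -0.052 without the negative 0610 library (range over the 4 left out -0.052 to 0.107), and BMI1 was 0.0946 without the negative 0610 library (range -0.29 to 0.0946); CD44 ranged from -0.207 to -0.0509. Libraries of one number deviated together (correlation 0.65), but with 2 pairs and no statement of what the numbers mark, this does not show that they pair the samples. Without the block, the adjusted p ranged from 0.232 to 0.911 for CD24 and from 0.488 to 0.9998 for DCLK1. Between resistant and parental cells, the 2-fold rule gave 1629 genes higher and 832 lower as reported, 777 and 397 with a pseudocount of 5, and 995 were higher against the mean of the 4 sorted libraries; a larger pseudocount shrinks ratios of low genes by construction. CD44 was under 2-fold after quantile normalization (0.91) and against the sorted mean (0.85), and DCLK1 against the sorted mean (-0.94). The single parental and resistant libraries, the unknown read counts and the low level of PROM1 and LGR5 limit what can be compared.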
